A study of Mus musculus with 9 samples.

Results

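The first week of weight loss was examined in epididymal adipose tissue by comparing 3 libraries of mice fed HFD for 8 weeks (Pre) with 3 libraries of mice given 1 week of SD after those 8 weeks (WL1). Male C57BL/6J mice entered the HFD at 8 weeks of age. HFD was D12492, a high-fat diet, and SD was the standard chow CE-2. The 6 libraries belong to 9 in all, the other 3 being from mice with 2 weeks of SD (WL2), and all 9 were sequenced as bulk RNA. The comparison was made over every gene that reached 0.5 CPM (counts scaled by library size, here after the trimmed mean of M-values) in at least 1 of the 9 libraries, which held for 18510 of 56748 genes counted. No library came from mice kept on HFD for the extra week, so the change of diet and the extra week of age cannot be told apart. In a bulk sample, fewer cells of a type and less RNA per cell cannot be told apart either.

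White adipose tissue stores energy as triglyceride in large adipocytes. Adipocytes make fatty acids from citrate and acetate through *Acly*, *Acss2*, *Acaca* and *Fasn*, desaturate them through *Scd1*, and join them to glycerol through the acyltransferases that end with *Dgat2*. The sterol response element binding proteins and the carbohydrate response element binding protein switch these genes on when insulin and carbohydrate are plentiful. In obese tissue, macrophages gather around dying adipocytes and take up their lipid, and such lipid-associated macrophages express *Trem2*, *Gpnmb* and lysosomal hydrolases. During energy restriction stored triglyceride is hydrolysed and fatty acids leave the tissue.

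The libraries held between 16434450 and 22729072 counts. Adipocyte markers were abundant: the summed CPM of 8 defining genes was 35070, 28100 and 27810 at Pre and 22440, 25450 and 19230 at WL1. Of 14 genes of epididymis, testis and seminal vesicle, 2 reached 0.5 CPM in any library, and *Lcn5*, *Crisp1* and *Svs4* did not. Some libraries differed from the others of their phase in markers of other cells. B cell markers (*Cd79a* and *Ms4a1*) summed to 113 CPM in Pre replicate 2 against 1.36 to 4.18 CPM in the other 5 libraries of Pre and WL1. Hepatocyte markers (*Alb*, *Apoa1*, *Ttr* and *Fgb*) summed to 45.5, 80.5 and 68.0 CPM in Pre replicates 2 and 3 and WL1 replicate 1, against 1.79 to 7.31 CPM in the other 3. Mesothelial markers were lowest in Pre replicate 1 (33.6 CPM) and WL1 replicate 2 (41.0 CPM) and reached 339 CPM in Pre replicate 2. Red blood cell markers were higher in every Pre library (829 to 1415 CPM) than in any WL1 library (313 to 515 CPM). Transcripts of the mitochondrial genome made up 3.15% to 3.57% of counts at Pre and 1.86% to 2.03% at WL1. The part of these differences in the results was not tested beyond the fits that leave out a library.

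**Figure D1:**
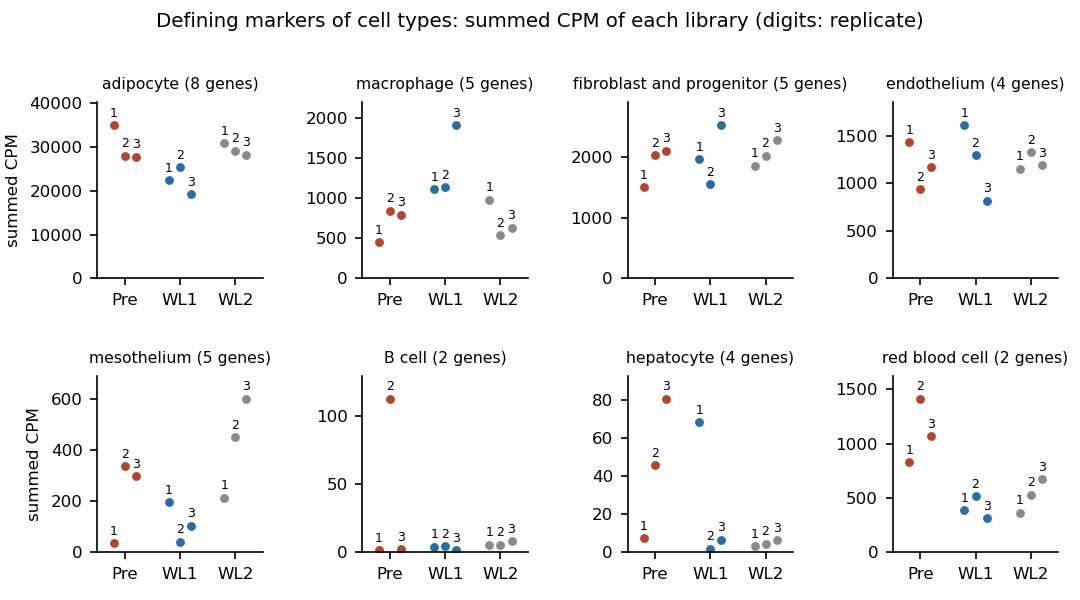
Summed CPM (vertical axis, from 0) of the defining markers of 8 cell types in each library of Pre, WL1 and WL2 (horizontal axis), with a digit for the replicate number. Macrophage markers ran from 449 to 847 CPM at Pre and from 1110 to 1914 CPM at WL1, B cell markers were high in Pre replicate 2, and endothelial and fibroblast markers overlapped between the phases.

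After 1 week of SD, 868 genes were lower and 482 were higher than at Pre by edgeR's quasi-likelihood test at an adjusted p of 0.05, which is 4.69% and 2.6% of the genes tested. Abundant genes of fat synthesis, mitochondria and the adipocyte were among the falls. Genes that fell summed to 230430 CPM at Pre and 122200 CPM at WL1, and genes that rose summed to 20640 CPM and 43343 CPM. At least a 2-fold difference was reached by 301 of the genes that fell and 230 of those that rose, and at least a 4-fold difference by 61 and 44. The median log2 fold change over all genes tested was 0.02. Each log2 fold change is given as WL1 against Pre ± its standard error. Of the 1350 genes called, 1349 had no overlap between the Pre and WL1 libraries. Over all genes tested, the libraries did not overlap in 14.7% with WL1 higher and in 13.9% with WL1 lower.

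The calls depended on single libraries more for rises than for falls. In each of 9 further fits, 1 library was left out, and 329 of the falls (1.78% of the genes tested) but 47 of the rises (0.254%) passed in all of them. Below, a change that passed in these 9 fits as well is called stable. When Pre replicate 1 was left out there were 96 rises, when Pre replicate 2 was, 276, and when WL1 replicates 1, 2 or 3 were, 188, 164 and 95. The falls in the fit lacking Pre replicate 1 numbered 465, and in those lacking WL1 replicates 1, 2 or 3 they numbered 410, 510 and 412. Scaling by the library sum alone turned the split to 1003 rises and 642 falls, 61% rises against 35.7%, and moved the median log2 fold change of all genes from 0.02 to 0.12. Changes of WL2 against Pre are given beside some genes, and these use the same Pre libraries.

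**Figure D2:**
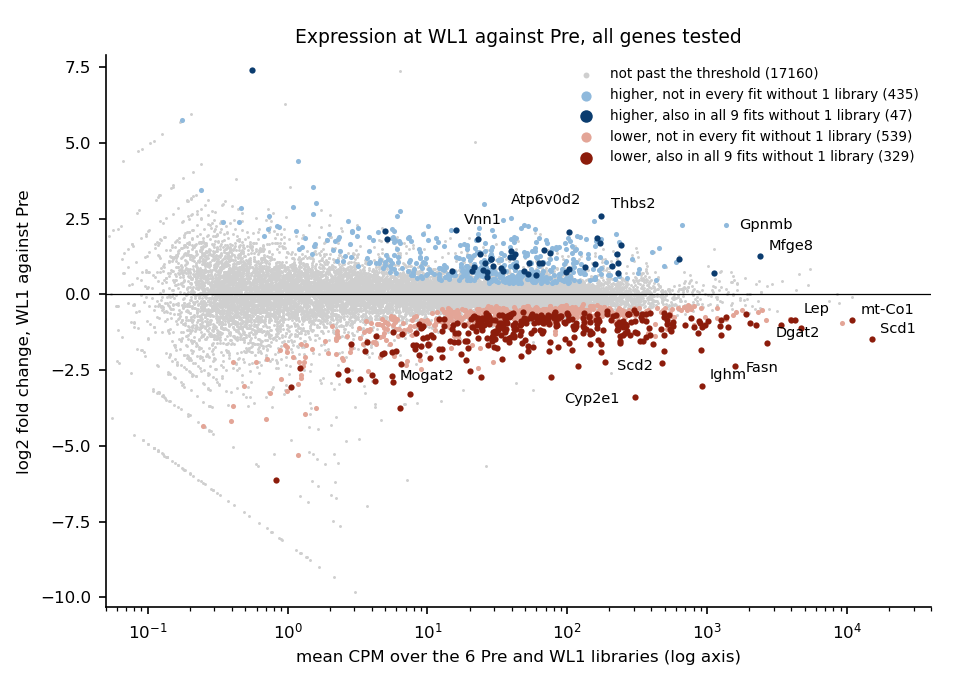
Log2 fold change of WL1 against Pre (vertical axis) against mean CPM of the 6 libraries (horizontal, log axis) for the 18510 genes tested. Dark points are the 329 stable falls and 47 stable rises. Pale points are genes past the threshold in the fit of all libraries that lost the call in at least 1 of the 9 fits. The abundant labelled genes *Scd1*, *mt-Co1*, *Lep* and *Dgat2* lie below 0.

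Fatty acid synthesis fell almost as a whole. Of 12 genes of the list tested, 11 were lower at WL1 (4.69% of all genes tested were), 9 of them stably (1.78% of all genes), and the median log2 fold change was -1.01 against 0.02 over all genes. *Fasn*, which builds palmitate from malonyl-CoA, stood at 2267, 2873 and 2789.9 CPM at Pre and 480.0, 419 and 643 CPM at WL1. Every WL1 library lay far below every Pre library, and the level was 5.14-fold lower (log2 fold change -2.36 ± 0.28, adjusted p = 0.00135). *Pnpla3*, a lipid droplet hydrolase made during lipogenesis, stood at 352, 226 and 346 CPM at Pre and 59.6, 72.5 and 66 CPM at WL1 (log2 fold change -2.22 ± 0.20, adjusted p = 0.000347). *Acss2*, which activates acetate to acetyl-CoA, went from 97.8, 101 and 148 CPM to 29.1, 35.8 and 30.9 CPM (log2 fold change -1.86 ± 0.16, adjusted p = 0.000347). The phases were again far apart for both genes. *Thrsp* and *Mid1ip1*, related regulators of lipogenesis, changed by -1.65 ± 0.17 and -0.69 ± 0.12. The mitochondrial citrate carrier *Slc25a1* (-1.35 ± 0.12), malic enzyme *Me1* (-1.10 ± 0.13), the transcription factor *Srebf1* (-0.92 ± 0.12) and the carboxylase *Acaca* (-0.83 ± 0.12) fell stably as well.

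*Acly*, which makes cytosolic acetyl-CoA from citrate, fell by 0.65 on the log2 scale and lost the call in the fit without WL1 replicate 2. The carbohydrate-responsive factor *Mlxipl* (log2 fold change -0.61 ± 0.16, adjusted p = 0.0492) passed in 2 of the 9 fits. The member that did not fall was *Acacb*, the carboxylase at the mitochondrial membrane whose malonyl-CoA restrains fatty acid entry. Its levels were 71.1, 65.7 and 60.0 CPM at Pre and 107, 87 and 72.5 CPM at WL1 (log2 fold change 0.44 ± 0.15, adjusted p = 0.103). Each WL1 library exceeded each Pre library, without passing the threshold. At WL2 *Acacb* stood at 128, 109 and 108 CPM, while *Fasn* stood at 194, 321 and 449 CPM.

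The largest loss in CPM of any stable gene was in desaturation. *Scd1*, the stearoyl-CoA desaturase that makes oleate, had 20657, 22814 and 22553 CPM at Pre and 9498, 7868 and 6498 CPM at WL1 (log2 fold change -1.47 ± 0.21, adjusted p = 0.00382). At WL2 its levels were 10539, 12025 and 18330 CPM (log2 fold change against Pre -0.69, adjusted p = 0.0643). *Scd2*, its paralog, went from 646, 729 and 1005 CPM to 161, 153 and 178 CPM (log2 fold change -2.27 ± 0.18, adjusted p = 0.000262) and stood at 77.6, 70.8 and 94.8 CPM at WL2. *Scd1* was therefore lowest at WL1 by its mean and *Scd2* at WL2, and both fell stably at WL1. The rule by which reads shared by such paralogs were assigned is not known here. Of 12 desaturases and elongases tested, 3 fell, the other being the elongase *Elovl6* (log2 fold change -1.01 ± 0.23, adjusted p = 0.0311), which passed in 4 of 9 fits. The polyunsaturated desaturase *Fads1* (0.21 ± 0.14) and the elongase *Elovl5* (-0.08 ± 0.12) overlapped between the phases.

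**Figure D3:**
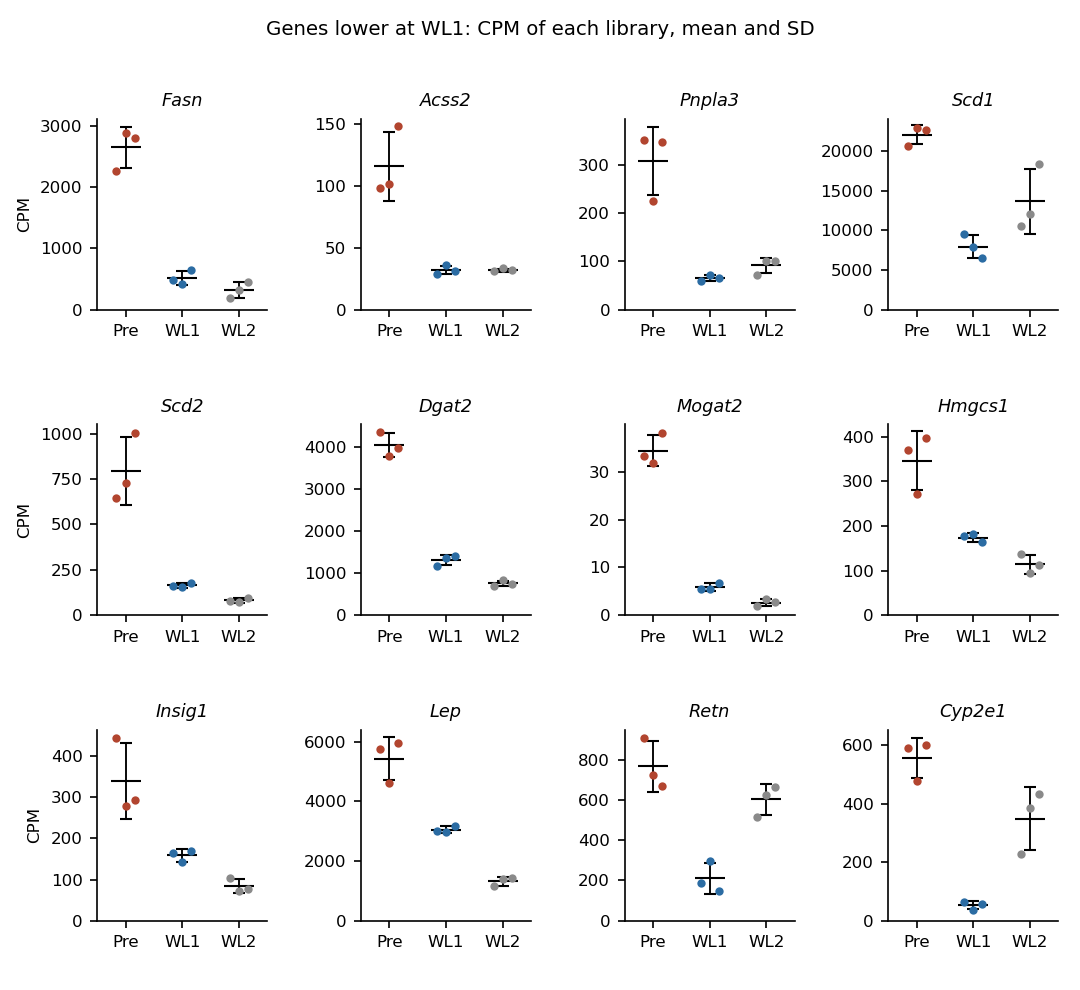
CPM (vertical axis, from 0) of 12 genes lower at WL1 in each library of the 3 phases (horizontal axis), with points for libraries and bars for the mean and SD (n = 3). Pre and WL1 points are apart in all 12 panels, and at WL2 *Cyp2e1* and *Retn* lie nearer to Pre than at WL1 while *Lep*, *Dgat2* and *Mogat2* lie lower than at WL1.

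Cholesterol synthesis fell in part. Of 23 genes tested for sterol synthesis and uptake, 14 were lower and none was higher, with a median log2 fold change of -0.71. The falls numbered 9 without Pre replicate 1, 7 without WL1 replicate 1 and 7 without WL1 replicate 2, and 7 were stable. Among the stable falls were those of the demethylation enzyme *Nsdhl* (-1.13 ± 0.15), the sterol sensor *Insig1* (-1.09 ± 0.20) and phosphomevalonate kinase *Pmvk* (-1.01 ± 0.15). *Hmgcs1*, which commits acetyl-CoA to the pathway, had 369.6, 271 and 396 CPM at Pre and 178, 181 and 163 CPM at WL1 (log2 fold change -0.99 ± 0.17, adjusted p = 0.0087). Mevalonate kinase *Mvk* had 46.1, 45.2 and 45.6 CPM at Pre and 24.4, 28.2 and 24.4 CPM at WL1 (log2 fold change -0.83 ± 0.10, adjusted p = 0.00144). In both genes the phases did not overlap. *Sqle*, which oxidises squalene, did not pass, at 17.1, 17.4 and 19.7 CPM at Pre and 16.4, 17.6 and 18.9 CPM at WL1 with overlap between the phases (log2 fold change -0.04 ± 0.19, adjusted p = 0.932).

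The genes of both pathways carry well-known promoter letters, and 3 promoters of genes that fell stably are printed to show them. They are the 250 bases before the RefSeq start on GRCm38.p6, read 5′ to 3′. Capitals mark CCAAT on either strand (ATTGG where it lies on the other) and, in *Hmgcs1*, also TCACCCCA, the core of a sterol response element.
*Fasn* (chr11:120824548-120824797, minus strand): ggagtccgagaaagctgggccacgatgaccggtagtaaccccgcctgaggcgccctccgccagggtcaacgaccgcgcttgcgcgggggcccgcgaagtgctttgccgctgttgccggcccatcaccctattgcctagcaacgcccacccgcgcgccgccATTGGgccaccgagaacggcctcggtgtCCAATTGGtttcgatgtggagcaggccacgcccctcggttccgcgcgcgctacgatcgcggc

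*Hmgcs1* (chr13:119690101-119690350, plus strand): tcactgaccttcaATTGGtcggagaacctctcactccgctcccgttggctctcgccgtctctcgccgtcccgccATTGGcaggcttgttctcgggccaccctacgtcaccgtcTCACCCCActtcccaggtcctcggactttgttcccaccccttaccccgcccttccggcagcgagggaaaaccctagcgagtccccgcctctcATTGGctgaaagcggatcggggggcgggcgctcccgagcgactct

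*Mvk* (chr5:114444019-114444268, plus strand): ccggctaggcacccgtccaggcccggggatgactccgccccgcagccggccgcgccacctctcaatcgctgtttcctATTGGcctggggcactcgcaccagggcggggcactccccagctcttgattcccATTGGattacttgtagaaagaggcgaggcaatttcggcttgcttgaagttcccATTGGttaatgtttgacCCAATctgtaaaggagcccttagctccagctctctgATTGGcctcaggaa
*Fasn* holds 3 CCAAT matches, of which a pair share bases as CCAATTGG, *Hmgcs1* holds 3 and *Mvk* holds 5. The *Hmgcs1* sterol element begins 137 bases before the start. In windows of 300 bases around the start, CCAAT was present in 16 of 19 windows of the cholesterol list (84.2%; 16 of its 23 genes had a window) and in 11 of 16 windows of the fatty acid list (68.8%). It was present in 5919 of 15928 windows of all genes tested (37.2%), in 41.2% of windows of genes that fell and in 36.4% of windows of genes that rose. The share was 87.5% of 24 windows for the cell division list, whose members had positive log2 fold changes. TCACCCCA was present in 2 windows of the cholesterol list (10.5%), in none of the fatty acid list and in 1.49% of all windows. No binding was measured here, and such matches describe the letters alone.

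Triglyceride assembly fell in part. Of 14 genes tested, 7 were lower, 5 of them stably, and the median log2 fold change was -0.66. *Dgat2*, which adds the last fatty acid, had 4362, 3799.9 and 3981 CPM at Pre and 1180.1, 1368 and 1404 CPM at WL1 (log2 fold change -1.62 ± 0.12, adjusted p = 0.000262). The monoacylglycerol acyltransferase *Mogat2* had 33.3, 31.9 and 38.2 CPM at Pre and 5.43, 5.56 and 6.8 CPM at WL1 (log2 fold change -2.54 ± 0.19, adjusted p = 0.000262). Neither gene overlapped between phases, and both were lower again at WL2, at 703, 829 and 742 CPM and 1.86, 3.34 and 2.72 CPM. *Mogat1* (-1.68 ± 0.17), the lysophosphatidate acyltransferase *Agpat2* (-1.34 ± 0.20) and glycerol phosphate dehydrogenase *Gpd1* (-1.02 ± 0.13) also fell stably. The first acyltransferase *Gpam* (log2 fold change -0.84 ± 0.17, adjusted p = 0.0182) and glycerol kinase *Gk* (log2 fold change -0.77 ± 0.18, adjusted p = 0.03) passed in 7 and 4 of the 9 fits. *Dgat1*, the other enzyme of the last step, had 285, 259 and 194 CPM at Pre and 163, 203 and 139 CPM at WL1 and did not pass (log2 fold change -0.55 ± 0.17, adjusted p = 0.08). Of 9 genes tested of the pentose phosphate pathway and NADPH supply, 4 fell and 5 did not pass (median -0.36). The falls were *Me1*, given above, *Rpe* (-0.89 ± 0.09), *Pgd* (-0.63 ± 0.12) and *Taldo1* (-0.74 ± 0.15), the first 3 stable.

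Of 14 genes of lipolysis and the lipid droplet, 3 fell, with a median log2 fold change of -0.37. *Cidec*, which enlarges the single droplet of white adipocytes, had 5302, 5329.8 and 4692 CPM at Pre and 2646, 3093 and 2828 CPM at WL1 (log2 fold change -0.84 ± 0.11, adjusted p = 0.00236), a stable fall. *Plin1*, which coats the droplet (log2 fold change -0.52 ± 0.13, adjusted p = 0.04), passed in 1 of the 9 fits, and *Abhd5*, a coactivator of triglyceride lipase (log2 fold change -0.40 ± 0.10, adjusted p = 0.0416), in 3. Without Pre replicate 1, WL1 replicates 1, 2 or 3 or WL2 replicate 2, a single member fell. The lipases themselves did not pass: *Pnpla2* had 2142, 2181 and 1539 CPM at Pre and 1702, 1900.1 and 1573 CPM at WL1, with overlap (log2 fold change -0.18 ± 0.15, adjusted p = 0.504), and *Lipe* had 1897, 1787 and 1556 CPM at Pre and 1294, 1439 and 1033 CPM at WL1, without overlap (log2 fold change -0.48 ± 0.14, adjusted p = 0.0687). *Angptl8*, a secreted inhibitor of lipoprotein lipase that is made in the fed state, fell stably from 11.3, 7.88 and 13.3 CPM to 2.33, 2.25 and 2.08 CPM (log2 fold change -2.28 ± 0.23, adjusted p = 0.000664). Lipoprotein lipase itself, *Lpl*, stood at 13178, 3369.9 and 12399 CPM at Pre, with replicate 2 far below the other libraries, and at 7984, 7479 and 8195 CPM at WL1 (log2 fold change -0.29 ± 0.38, adjusted p = 0.684). The fatty acid carrier *Cd36* was higher in each WL1 library, at 5943, 5783 and 5607 CPM against 4955, 4186 and 4894 CPM, without passing (log2 fold change 0.30 ± 0.12, adjusted p = 0.155).

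Among secreted products and markers of the adipocyte, 5 of 18 fell and 17 had negative log2 fold changes (median -0.50). Leptin, the hormone that reports fat stores, fell stably: *Lep* had 5735, 4612 and 5943 CPM at Pre and 3019, 2966 and 3169.7 CPM at WL1 (log2 fold change -0.83 ± 0.13, adjusted p = 0.00661) and stood at 1155, 1390.2 and 1439.6 CPM at WL2. Resistin, *Retn*, had 910.0, 723 and 668 CPM at Pre and 187, 297 and 149 CPM at WL1 (log2 fold change -1.86 ± 0.24, adjusted p = 0.00197), and at WL2 it stood at 515, 626 and 666 CPM (log2 fold change against Pre -0.35, adjusted p = 0.369). The retinol carrier *Rbp4* fell stably from 586, 528 and 440.3 CPM to 177, 219 and 144 CPM (log2 fold change -1.52 ± 0.17, adjusted p = 0.00115). The libraries of the phases were apart for these 3 genes. *Nrg4*, a secreted growth factor (log2 fold change -1.12 ± 0.24, adjusted p = 0.0214), passed in 8 of the 9 fits, and 3 of the 5 falls remained called without Pre replicate 1. *Adipoq*, which encodes adiponectin, had 3344, 2804 and 2123 CPM at Pre and 2021, 2358 and 1676 CPM at WL1 and overlapped (log2 fold change -0.45 ± 0.18, adjusted p = 0.165). *Pparg*, the master regulator of the adipocyte, stood at 219, 181 and 189 CPM and 167, 162 and 139 CPM, apart but not past the threshold (log2 fold change -0.33 ± 0.13, adjusted p = 0.141). Of 11 genes known to rise as fat expands, 5 fell and 0 rose past the threshold. The list was split, with 6 negative and 5 positive log2 fold changes (median -0.06). *Sncg* (-1.02 ± 0.16) fell stably besides *Lep*. The number of falls was 2 without Pre replicate 1 or WL1 replicates 1 or 3, and 3 without Pre replicate 3 or WL1 replicate 2. *Mest*, an imprinted gene that tracks adipocyte enlargement, had 722 ± 85.2 CPM at Pre and 432 ± 4.72 CPM at WL1 (log2 fold change -0.74 ± 0.15, adjusted p = 0.0206) and 80.4 ± 16.6 CPM at WL2, and passed in 5 of 9 fits.

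Transcripts of the mitochondrial genome fell together. All 13 had negative log2 fold changes (median -1.02), 10 passed the test and 6 were stable. *mt-Co1*, a subunit of cytochrome oxidase, had 13100, 16913 and 11996 CPM at Pre and 7714, 8087 and 7585 CPM at WL1 (log2 fold change -0.85 ± 0.15, adjusted p = 0.0115), and *mt-Cytb*, of complex III, had 6829.8, 6566 and 5845 CPM at Pre and 3021, 3159 and 2809.8 CPM at WL1 (log2 fold change -1.10 ± 0.12, adjusted p = 0.000944). Neither overlapped. *mt-Nd4* (-1.02 ± 0.12) and *mt-Nd1* (-1.00 ± 0.13) of complex I were stable too. *mt-Atp6*, *mt-Co3*, *mt-Co2*, *mt-Nd3* and *mt-Nd4l* were counted at means of 3.81 to 114 CPM against 1486 to 14003 CPM for *mt-Co1*, *mt-Cytb*, *mt-Nd1*, *mt-Nd2* and *mt-Nd4*. Copies of mitochondrial DNA lie in nuclear chromosomes and how shared reads were counted is not given, so the low values are uncertain. Subunits encoded in the nucleus moved the same way by less. All 20 tested had negative log2 fold changes (median -0.40) and 7 passed, led by *Cyc1* of complex III (log2 fold change -0.62 ± 0.12, adjusted p = 0.0171). None of these 7 was stable, and the number was 0 without Pre replicate 1, WL1 replicate 1 or WL1 replicate 3, 1 without Pre replicate 2 or WL2 replicate 2, 2 without WL1 replicate 2 and 3 without WL2 replicate 3.

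Breakdown of the branched-chain amino acids fell in part. Of 18 genes, 9 fell and 16 had negative values (median -0.48). The number was 3 without Pre replicate 1, 2 without WL1 replicate 1, 3 without WL1 replicate 2 and 2 without WL1 replicate 3. The stable falls were those of *Mccc2*, a subunit of the leucine pathway carboxylase, at 81.8, 72.1 and 71.2 CPM at Pre and 47.4, 51 and 37.7 CPM at WL1 (log2 fold change -0.73 ± 0.13, adjusted p = 0.00966), and of *Hibadh* of the valine pathway, at 236, 262 and 209.6 CPM at Pre and 146, 169 and 137 CPM at WL1 (log2 fold change -0.65 ± 0.12, adjusted p = 0.012). At WL2 both genes lay within the range of Pre or close to it, at 72.3, 77.9 and 70.5 CPM and 227, 236 and 231 CPM. The first enzyme, *Bcat2* (log2 fold change -0.51 ± 0.13, adjusted p = 0.0463), passed in 1 of the 9 fits.

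Fatty acid oxidation was mixed. Of 20 genes, 5 fell and 1 rose, with a median log2 fold change of -0.24. *Cpt2*, the inner membrane carnitine transferase (log2 fold change -0.71 ± 0.12, adjusted p = 0.00695), *Ucp3*, a mitochondrial carrier linked to fatty acid use (log2 fold change -0.91 ± 0.16, adjusted p = 0.0113), and *Decr1*, needed for unsaturated chains (log2 fold change -0.55 ± 0.10, adjusted p = 0.0122), fell stably. The other 2 falls lost the call in some fits, and the number was 3 without Pre replicate 1, WL1 replicate 1 or WL1 replicate 3. *Cpt1a*, the gate of mitochondrial entry, was higher in every WL1 library (138, 149 and 173 CPM at Pre and 196, 175 and 222 CPM at WL1) without passing (log2 fold change 0.37 ± 0.14, adjusted p = 0.133). The rise was that of *Pdk4*, the kinase that shuts off pyruvate dehydrogenase when fat is burned. It had 74.7, 64.1 and 103 CPM at Pre and 201, 246 and 332 CPM at WL1 (log2 fold change 1.69 ± 0.25, adjusted p = 0.00453), was stable, and stood at 261, 149 and 212 CPM at WL2.

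Of 8 genes of ketone body metabolism, 1 rose and 1 fell, both stably. The fall was that of *Oxct1*, which uses ketone bodies, from 465, 393 and 482 CPM to 287, 295 and 272 CPM (log2 fold change -0.65 ± 0.11, adjusted p = 0.00764). The phases did not overlap. The gene of this list that rose is not reported here. Outside the list, *Vnn1*, a pantetheinase and a well-known target of the fasting receptor PPARα, rose stably. It went from 6.02, 6.89 and 4.94 CPM to 29.4, 28.5 and 20.1 CPM (log2 fold change 2.13 ± 0.22, adjusted p = 0.00073). Of 15 genes of the glucocorticoid response, *Pdk4*, *Sgk1* (log2 fold change 0.73 ± 0.15, adjusted p = 0.0213) and *Hsd11b1* (log2 fold change 1.04 ± 0.28, adjusted p = 0.0492) rose and *Lcn2* (log2 fold change -0.93 ± 0.25, adjusted p = 0.0492) fell. *Sgk1* passed in 5 of the 9 fits, *Hsd11b1* in 1 and *Lcn2* in 2, so without Pre replicates 1 or 2 or WL1 replicate 2 the only rise was that of *Pdk4*.

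Glycolysis fell in part: 6 of 16 genes were lower and 1 was higher (median -0.36). The stable falls were those of *Tpi1* (-0.97 ± 0.13), *Ldha* (-0.77 ± 0.12) and *Aldoa* (-0.73 ± 0.13). *Hk2* (-0.78 ± 0.19), *Pfkl* (-0.60 ± 0.11) and *Pdha1* (-0.38 ± 0.10) made up the 6, of which 3 remained called without WL1 replicate 1. *Pdk1*, a relative of *Pdk4*, was the rise (log2 fold change 0.53 ± 0.12, adjusted p = 0.0303; 4 of 9 fits). In insulin signalling, *Akt2*, the kinase of glucose uptake, fell stably from 445, 453 and 381 CPM to 249, 268 and 238 CPM (log2 fold change -0.76 ± 0.11, adjusted p = 0.00382), and the adaptor *Grb14* (log2 fold change -1.08 ± 0.27, adjusted p = 0.0391) passed in 2 of the 9. The insulin-responsive glucose transporter *Slc2a4* stood at 216, 235 and 135 CPM and 128, 151 and 105 CPM, with overlap (log2 fold change -0.61 ± 0.22, adjusted p = 0.125). Among 16 genes of adrenergic and cAMP signalling, the adenylate cyclase *Adcy3* rose stably from 27.7, 34.3 and 27.3 CPM to 56.7, 46.7 and 66.3 CPM (log2 fold change 0.93 ± 0.16, adjusted p = 0.00794). The natriuretic peptide clearance receptor *Npr3* (log2 fold change -0.77 ± 0.17, adjusted p = 0.0231) and the kinase subunit *Prkar2b* (log2 fold change -0.49 ± 0.12, adjusted p = 0.0366) fell, passing in 5 and 1 of the 9 fits.

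*Cyp2e1*, a cytochrome P450 that oxidises small lipids and ketones, showed the largest stable fall after *Rnase2a* among protein-coding genes of at least 1 CPM. It had 589, 478 and 599.5 CPM at Pre and 63.5, 38.2 and 58.4 CPM at WL1, 10.4-fold lower at WL1 (log2 fold change -3.38 ± 0.27, adjusted p = 0.000262), and 226, 386 and 431 CPM at WL2. All 3 WL1 libraries were far below Pre and all 3 WL2 libraries lay between. Of 20 genes of detoxification and carbonic anhydrase, 5 fell and 1 rose, and 8 fell without WL2 replicate 1. Glutathione transferases *Gsta3* (log2 fold change -1.31 ± 0.21, adjusted p = 0.00693), *Gsta4* (log2 fold change -1.23 ± 0.22, adjusted p = 0.0115) and *Gstm2* (log2 fold change -0.92 ± 0.11, adjusted p = 0.00152) fell stably, while their relative *Gstm1* rose from 898, 878 and 769 CPM to 1379, 1477 and 1279 CPM (log2 fold change 0.70 ± 0.11, adjusted p = 0.00585). Carbonic anhydrase *Car3*, among the most abundant adipocyte transcripts, had 15581, 9102 and 11548 CPM at Pre and 6852, 6948 and 5162 CPM at WL1 (log2 fold change -0.93 ± 0.20, adjusted p = 0.0242; 5 of 9 fits) and 10763, 13727 and 13548 CPM at WL2.

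**Figure D4:**
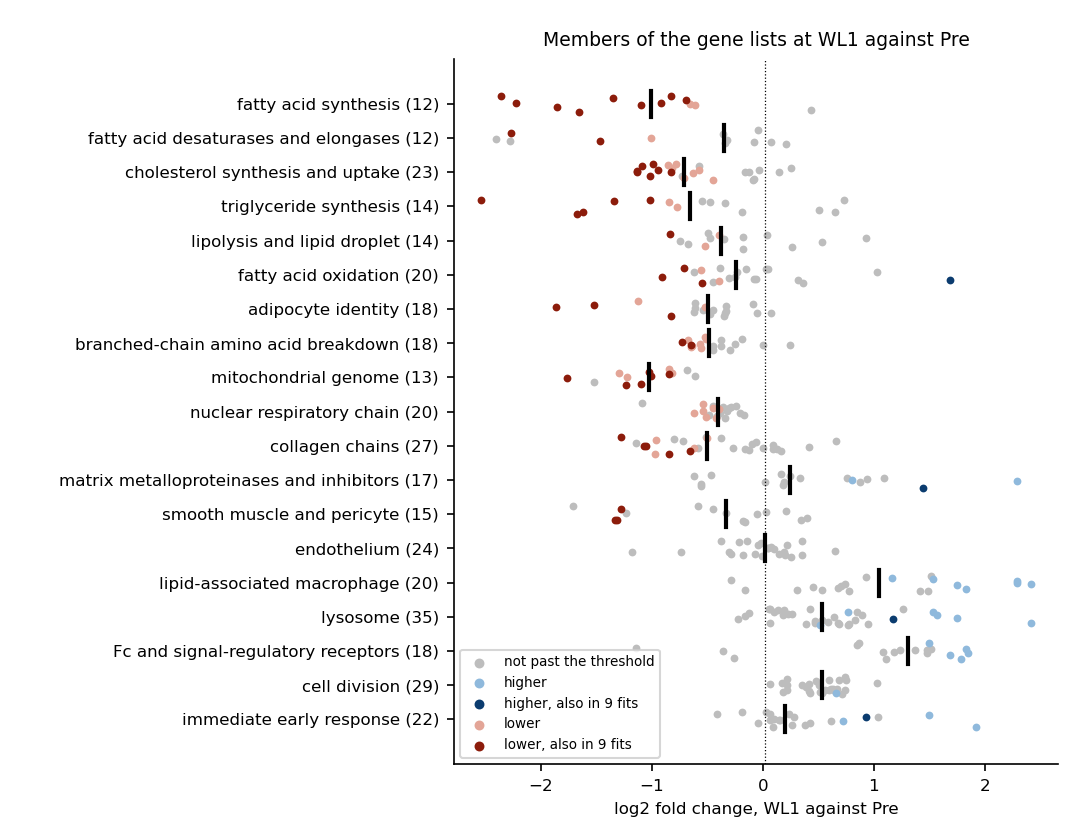
Log2 fold change of WL1 against Pre (horizontal axis) of each tested member of 19 gene lists (rows, number tested in brackets), with a black bar for the list's median and a dotted line at the median of all genes (0.02). Dark points passed in the 9 fits without 1 library as well. Lipid synthesis and mitochondrial lists lie to the left, macrophage, lysosome and cell division lists to the right, and endothelium around 0.

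Collagens of the basement membrane and of types V and VI were the chains that fell stably. Of 27 collagen chains, 9 were lower and none was higher, with a median log2 fold change of -0.50. The number was 5 without Pre replicate 2, WL1 replicate 1 or WL1 replicate 2. *Col15a1*, a basement membrane collagen, had 1118, 1279 and 1276 CPM at Pre and 494, 490.3 and 527 CPM at WL1 (log2 fold change -1.28 ± 0.13, adjusted p = 0.000638), and *Col6a2*, a chain of the collagen around adipocytes, had 1502, 1757 and 1735 CPM at Pre and 755, 698 and 948 CPM at WL1 (log2 fold change -1.06 ± 0.14, adjusted p = 0.00232). The phases were apart in both. *Col5a3* (-1.07 ± 0.14), *Col6a1* (-0.84 ± 0.12) and *Col4a2* (-0.66 ± 0.12) were the other stable falls. The fibrillar chains *Col1a1* (549, 918 and 779 CPM at Pre and 725, 567 and 1100.5 CPM at WL1; log2 fold change 0.09 ± 0.24, adjusted p = 0.855) and *Col3a1* (1628, 2165 and 2299 CPM at Pre and 1645, 1526 and 2929 CPM at WL1; log2 fold change 0.00 ± 0.23, adjusted p = 0.997) overlapped, and WL1 replicate 3 was highest for both. Among 24 genes of collagen processing, the chaperone *Serpinh1* (log2 fold change -0.87 ± 0.12, adjusted p = 0.00344) and the protease enhancer *Pcolce2* (log2 fold change -1.05 ± 0.10, adjusted p = 0.000433) fell stably, and the hydroxylase *P3h1* (log2 fold change -0.49 ± 0.10, adjusted p = 0.0231) passed in 5 of the 9.

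Of the 4 thrombospondins tested, 2 rose, while *Thbs3* (log2 fold change -0.26 ± 0.23, adjusted p = 0.528) and *Thbs4* (log2 fold change -0.31 ± 0.86, adjusted p = 0.86) did not pass. *Thbs2*, thrombospondin 2, a secreted protein that binds matrix and restrains vessel growth, showed the largest stable rise among protein-coding genes of at least 1 CPM. It had 40.0, 57.8 and 50.9 CPM at Pre and 389.6, 289 and 216 CPM at WL1, 6.01-fold higher (log2 fold change 2.59 ± 0.23, adjusted p = 0.000347), and 423, 324 and 443 CPM at WL2. *Thbs1*, its relative and an activator of latent TGF-β, had 305, 348 and 510.1 CPM at Pre and 1003, 857 and 753 CPM at WL1 (log2 fold change 1.17 ± 0.19, adjusted p = 0.00701) and 1423, 1412 and 1657 CPM at WL2. No Pre library reached the lowest WL1 library in either gene. Of 23 genes of elastic fibres and matricellular proteins, these 2 rose and elastin, *Eln*, fell (log2 fold change -0.74 ± 0.19, adjusted p = 0.0416; 2 of 9 fits). *Chrdl1*, a secreted antagonist of bone morphogenetic proteins, rose from 123, 128 and 103 CPM to 472, 380.4 and 248 CPM (log2 fold change 1.64 ± 0.20, adjusted p = 0.00152) and stood at 535, 549 and 565 CPM at WL2. Among 17 metalloproteinases and inhibitors, 3 rose and none fell. *Mmp11* was stable, at 25.6, 17.3 and 20.6 CPM at Pre and 59.1, 57.4 and 56.5 CPM at WL1 (log2 fold change 1.45 ± 0.22, adjusted p = 0.00502), and the macrophage elastase *Mmp12* (log2 fold change 2.29 ± 0.54, adjusted p = 0.032) and the membrane enzyme *Mmp14* (log2 fold change 0.81 ± 0.18, adjusted p = 0.0262) passed in 4 and 5 of the 9, so 1 rose without Pre replicates 1 or 2 or WL1 replicate 3.

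**Figure D5:**
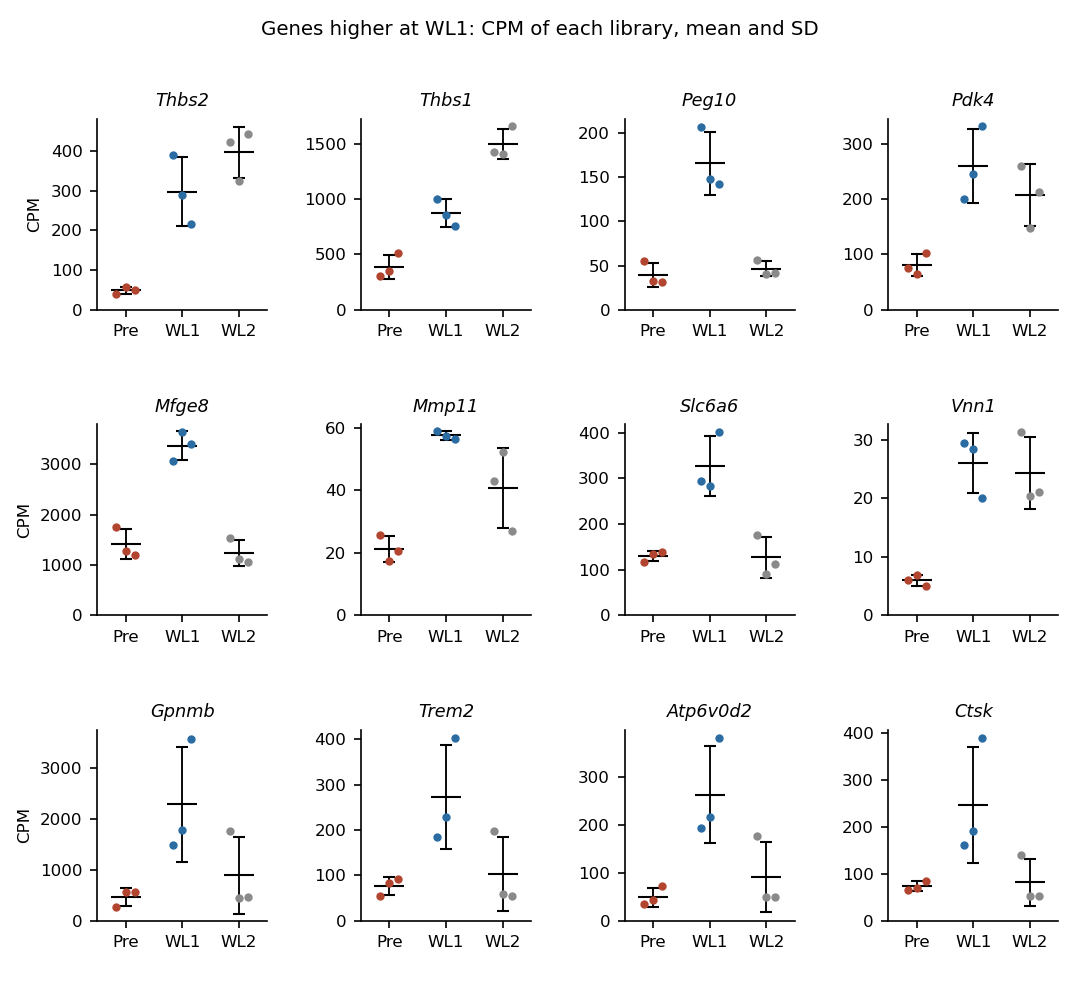
CPM (vertical axis, from 0) of 12 genes higher at WL1 in each library of the 3 phases (horizontal axis), with points for libraries and bars for the mean and SD (n = 3). The upper 8 genes rose stably, whereas for *Gpnmb*, *Trem2*, *Atp6v0d2* and *Ctsk* WL1 replicate 3 was the highest library and the SD was wide.

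Some contractile and caveolar genes fell. Of 15 genes of smooth muscle and pericytes, 3 fell, all stably. *Acta2*, smooth muscle actin, had 374, 350.4 and 371 CPM at Pre and 158, 133 and 160.3 CPM at WL1 (log2 fold change -1.28 ± 0.12, adjusted p = 0.000532), the pericyte proteoglycan *Cspg4* had 58, 72.7 and 67.5 CPM at Pre and 30.8, 20.7 and 27.3 CPM at WL1 (log2 fold change -1.33 ± 0.16, adjusted p = 0.00151), and myosin light chain kinase *Mylk* had 202, 140.2 and 280.5 CPM at Pre and 92.6, 79.6 and 78.7 CPM at WL1 (log2 fold change -1.31 ± 0.23, adjusted p = 0.00986). Each was lower in all WL1 libraries, and the list's median log2 fold change was -0.33. Of 7 caveola genes, *Cavin3* fell stably (log2 fold change -1.29 ± 0.12, adjusted p = 0.000476), and *Ehd2* (log2 fold change -0.67 ± 0.13, adjusted p = 0.0164) and *Cav2* (log2 fold change -0.50 ± 0.12, adjusted p = 0.0354) passed in 7 and 1 of the 9, so 1 fell without WL1 replicates 2 or 3. None of 24 endothelial genes passed by edgeR, DESeq2 or limma (1 had an unadjusted edgeR p under 0.05), 12 lay on each side of 0, and *Pecam1* had 460.2, 303 and 400.3 CPM at Pre and 494, 437 and 273 CPM at WL1 (log2 fold change 0.05 ± 0.21, adjusted p = 0.917).

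Genes of lipid-associated macrophages were higher at WL1 with a wide spread. Of 20 tested, 17 were higher in every WL1 library than in every Pre library (14.7% of all genes tested were), 7 passed the test (2.6% of all genes) and none fell, with a median log2 fold change of 1.05. None of the 7 was stable. *Gpnmb*, a lysosomal glycoprotein of these cells, had 269, 557 and 572 CPM at Pre and 1494, 1773 and 3577 CPM at WL1 (log2 fold change 2.29 ± 0.56, adjusted p = 0.0375). *Trem2*, their lipid-sensing receptor, had 55.1, 82 and 91.7 CPM at Pre and 185, 229.5 and 402 CPM at WL1 (log2 fold change 1.83 ± 0.49, adjusted p = 0.049), and *Atp6v0d2*, a subunit of the lysosomal proton pump, had 33.9, 42.4 and 71.4 CPM at Pre and 193, 217 and 380.2 CPM at WL1 (log2 fold change 2.42 ± 0.51, adjusted p = 0.0221). In all 3 genes WL1 replicate 3 was well above the other 2 WL1 libraries, which were themselves above Pre. The number passing was 0 without Pre replicates 1 or 2 or WL1 replicate 3, 1 without Pre replicate 3 or WL1 replicate 2, 4 without WL1 replicate 1, and 15 without WL2 replicate 1, which was itself the highest WL2 library for these 3 genes (198, 58.7 and 53.3 CPM for *Trem2*). Over the 9 fits the log2 fold change of *Trem2* ran from 1.43 to 2.05 and that of *Gpnmb* from 1.80 to 2.52.

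Some lysosomal genes and myeloid receptors also rose. These lists share members with that of lipid-associated macrophages, *Trem2* among them, so the counts are not of separate genes. Of 35 lysosomal genes, 32 had positive log2 fold changes (median 0.53), 23 were apart with WL1 higher (14.7% of all genes tested were) and 7 passed (2.6% of all genes). *Mitf*, a transcription factor of lysosomal genes, was the stable rise, at 14, 17.9 and 20.2 CPM at Pre and 36.7, 32.2 and 48.7 CPM at WL1 (log2 fold change 1.17 ± 0.21, adjusted p = 0.00996). Acid lipase *Lipa*, which hydrolyses the cholesteryl esters that macrophages take up, had 177, 262 and 264 CPM at Pre and 536, 579 and 915 CPM at WL1 (log2 fold change 1.53 ± 0.35, adjusted p = 0.0296), and cathepsin *Ctsk* had 66.4, 68.9 and 85.6 CPM at Pre and 161, 192 and 389 CPM at WL1 (log2 fold change 1.75 ± 0.42, adjusted p = 0.0336). The number was 1 without Pre replicate 1 or WL1 replicate 3, 4 without Pre replicates 2 or 3 or WL1 replicate 2, and 16 without WL2 replicate 1. Among 18 Fc and signal-regulatory receptors, 5 rose (2.6% of all genes did), led by *Lilrb4b* (log2 fold change 1.85 ± 0.35, adjusted p = 0.0137) and *Trem2*. Of these 18, 15 were apart with WL1 higher, against 14.7% of all genes tested (median 1.31 for the list). None was stable, and the number was 0 without Pre replicate 1 or WL1 replicate 3, 1 without Pre replicate 2 or WL1 replicate 1, 2 without WL1 replicate 2, 3 without Pre replicate 3 and 11 without WL2 replicate 1. *Mfge8*, a bridging protein for the uptake of dying cells, gained the most CPM of any stable rise: 1762, 1284 and 1201 CPM at Pre and 3061, 3642 and 3405 CPM at WL1 (log2 fold change 1.25 ± 0.19, adjusted p = 0.00429), and 1539, 1120.4 and 1061 CPM at WL2. All 3 WL1 libraries were close together there, unlike those of *Gpnmb*, *Trem2* and *Atp6v0d2*. *Siglec1*, a sialic acid receptor of resident macrophages, rose stably from 31.7, 44.6 and 45.9 CPM to 83.6, 78.3 and 89.5 CPM (log2 fold change 1.04 ± 0.17, adjusted p = 0.00635). Of the 19 genes of the resident macrophage list, which lacks *Siglec1*, 13 had positive and 6 negative log2 fold changes (median 0.49). The scavenger receptor *Msr1* was the one to pass (log2 fold change 1.56 ± 0.39, adjusted p = 0.0403, 2 of 9 fits).

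Cholesterol efflux genes were split. Of 15, 3 rose and 1 fell (median 0.11). The exporter *Abcg1* had 91.7, 91.7 and 123 CPM at Pre and 192, 223 and 305 CPM at WL1 (log2 fold change 1.23 ± 0.23, adjusted p = 0.0133; 8 of 9 fits), the ester hydrolase *Nceh1* had 28.2, 51.6 and 58.3 CPM at Pre and 109.7, 129 and 204 CPM at WL1 (log2 fold change 1.68 ± 0.41, adjusted p = 0.0379; 3 of 9), and the transfer protein *Pltp* passed in 2 (log2 fold change 1.05 ± 0.28, adjusted p = 0.0474). The apolipoprotein *Apoc1* fell (log2 fold change -0.97 ± 0.21, adjusted p = 0.0239; 6 of 9). The rises numbered 0 without Pre replicate 1 and 1 without any 1 of the WL1 libraries, and the fall was lost without Pre replicate 1 or WL1 replicates 1 or 3.

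Inflammatory mediators showed few calls. *Tnf* rose from 1.42, 1.71 and 1.62 CPM to 3.09, 3.17 and 3.88 CPM (log2 fold change 1.09 ± 0.25, adjusted p = 0.0297; 4 of 9 fits) in 20 cytokine and inflammasome genes (median 0.08), and *Il1b* stood at 0.767, 0.716 and 0.323 CPM and 0.543, 0.459 and 0.506 CPM (log2 fold change -0.25 ± 0.55, adjusted p = 0.82). Among 29 chemokines and receptors the single call was a stable fall of *Ccl8*, a monocyte chemoattractant, from 15.3, 20.3 and 15.1 CPM to 3.37, 4.22 and 4.1 CPM (log2 fold change -2.11 ± 0.22, adjusted p = 0.00073). *Ccl2* had 40.7, 40.9 and 83.5 CPM at Pre and 51.5, 64.7 and 50.3 CPM at WL1, with overlap (log2 fold change 0.01 ± 0.29, adjusted p = 0.986). Of 20 interferon-stimulated genes none passed by edgeR (median 0.23), 5 had an unadjusted p under 0.05, and 1 passed by DESeq2 and 0 by limma. *Rnase2a*, an eosinophil-type ribonuclease of a family of close copies, showed the largest stable fall of a protein-coding gene of at least 1 CPM, from 8.73, 11.4 and 15.4 CPM to 0.814, 1.19 and 0.618 CPM (log2 fold change -3.73 ± 0.40, adjusted p = 0.000846). *Retnla*, a product of alternatively activated macrophages, fell from 426, 621 and 558 CPM to 213, 243 and 206 CPM (log2 fold change -1.28 ± 0.25, adjusted p = 0.0166) and lost the call without WL1 replicates 1 or 3. *C6*, a terminal complement component, fell stably from 41.2, 37.1 and 46.5 CPM to 6.79, 5.33 and 6.92 CPM (log2 fold change -2.72 ± 0.20, adjusted p = 0.000262). Of the other 19 complement genes tested, *Cfb* (-0.74 ± 0.20) fell and *C3ar1* (1.50 ± 0.40) rose, each in 1 of the 9 fits, that without WL2 replicate 1.

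Lymphocyte genes depended on Pre replicate 2. The medians of 17 T and natural killer cell genes and of 13 B and plasma cell genes were -0.71 and -3.01, and became 0.72 and 0.50 without that library. None of the T and natural killer cell genes passed by edgeR, DESeq2 or limma, and 1 had an unadjusted edgeR p under 0.05. *Ighm*, the heavy chain of IgM, was the exception. It had 1119.8, 2502 and 1246 CPM at Pre and 159, 160.2 and 285 CPM at WL1 (log2 fold change -3.01 ± 0.37, adjusted p = 0.00151), a stable fall seen against every Pre library, and 234, 233 and 137 CPM at WL2. The median of 10 MHC class II genes went from -0.11 to 0.27 without Pre replicate 2. The mesothelial list (21 tested, median -0.94) had 2 falls, *Wnt4* and *Pkp1*. *Wnt4* had 0.118, 5.68 and 1.11 CPM at Pre and 0.0543, 0 and 0.112 CPM at WL1. *Pkp1* had 4.6, 1.27 and 3.09 CPM at Pre and 0.326, 0 and 0.337 CPM at WL1. It was highest in Pre replicate 1, where the defining mesothelial markers were lowest. The 2 falls passed in 3 and 4 of the 9 fits and rest on 3 and 12 reads over the WL1 libraries. Of 14 hepatocyte genes none passed by edgeR, DESeq2 or limma (median -0.27) and 0 had an unadjusted edgeR p under 0.05, with libraries on both sides as given above. Hemoglobin transcripts fell: 4 of 6 red blood cell genes passed, with *Hba-a1* (log2 fold change -1.53 ± 0.28, adjusted p = 0.0113) and *Hbb-bt* (log2 fold change -1.60 ± 0.23, adjusted p = 0.00382) stable, and 2 remained without WL1 replicates 1 or 3. *Acta1*, skeletal muscle actin, fell from 28.7, 43.4 and 43.9 CPM to 5.27, 4.64 and 12 CPM (log2 fold change -2.41 ± 0.45, adjusted p = 0.0131; 7 of 9), while the other 7 muscle genes tested did not pass and *Ckm* and *Myh4* were below the filter in every library.

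Cell division genes leaned upward. All 29 had positive log2 fold changes (median 0.53) and 19 were apart with WL1 higher (14.7% of all genes tested were). But *Bub1b*, a spindle checkpoint kinase, alone passed (8.85, 8.65 and 8.31 CPM at Pre and 13.2, 14.2 and 13.4 CPM at WL1; log2 fold change 0.66 ± 0.17, adjusted p = 0.0402; 2 of 9 fits), while 2.6% of all genes tested rose. The number passing was 4 without WL2 replicate 1, and it was 0 without any other library but WL2 replicate 2. *Mki67* had 29.8, 6.12 and 28.3 CPM at Pre and 35.1, 35.1 and 37.1 CPM at WL1, apart though Pre replicate 2 stood far below the others (log2 fold change 0.74 ± 0.46, adjusted p = 0.357). At WL2 the median of the list was -0.85 against Pre. Among 22 immediate early genes, *Atf3* (log2 fold change 1.92 ± 0.46, adjusted p = 0.0339), *Fos* (log2 fold change 1.50 ± 0.35, adjusted p = 0.0309), *Dusp1* and *Myc* (log2 fold change 0.72 ± 0.16, adjusted p = 0.0244) rose. *Dusp1*, a phosphatase that ends MAP kinase signals, was stable at 125, 132 and 172 CPM at Pre and 269, 222 and 328 CPM at WL1 (log2 fold change 0.93 ± 0.17, adjusted p = 0.0106), and the number was 1 without Pre replicate 1 or WL1 replicate 3 and 2 without Pre replicate 2 or WL1 replicate 1.

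Of 15 p53 and senescence genes, *Phlda3*, a p53 target that restrains Akt, fell stably from 422, 448 and 414 CPM to 154, 204 and 179 CPM (log2 fold change -1.26 ± 0.13, adjusted p = 0.000706). So did the cell cycle inhibitor *Cdkn2b* (log2 fold change -1.01 ± 0.13, adjusted p = 0.00234). *Ccng1* fell in all but 1 of the 9 fits (log2 fold change -0.73 ± 0.14, adjusted p = 0.014), and *Gdf15*, a stress hormone, rose from 2.89, 5.68 and 5.21 CPM to 9.88, 12.3 and 16.7 CPM (log2 fold change 1.49 ± 0.30, adjusted p = 0.0177; 7 of 9). In the growth hormone and IGF axis 5 of 15 fell. *Igfals*, which stabilises circulating IGF complexes, fell stably from 151, 117 and 127 CPM to 41.1, 41.4 and 35.4 CPM (log2 fold change -1.74 ± 0.20, adjusted p = 0.00121). *Igfbp4* had 1086 ± 281 CPM at Pre and 536 ± 36.9 CPM at WL1 (log2 fold change -1.02 ± 0.19, adjusted p = 0.0136; 8 of 9), and the number was 1 without WL1 replicate 2, 2 without Pre replicate 1 or WL1 replicate 3 and 3 without Pre replicate 3 or WL1 replicate 1. Of 25 Wnt pathway genes 4 fell, none stably (median -0.51), and the number was 0 without Pre replicate 2, WL1 replicates 2 or 3 or WL2 replicates 2 or 3, 1 without WL1 replicate 1 and 2 without Pre replicate 1. *Maob*, which degrades amines, fell stably from 51.5, 63 and 54 CPM to 27, 29.6 and 24.6 CPM (log2 fold change -1.05 ± 0.14, adjusted p = 0.00236), and *Tph2*, a serotonin-making hydroxylase of neurons, had 29.5, 33.4 and 81.8 CPM at Pre and 5.65, 6.84 and 18.5 CPM at WL1 (log2 fold change -2.23 ± 0.48, adjusted p = 0.0234) and 0.602, 0.567 and 0.927 CPM at WL2, losing the call without Pre replicate 3 or WL1 replicates 1 or 2.

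Several other stable changes were as large as those of the metabolic genes. *Wfdc21*, a small secreted protein of the whey acidic family, went from 135, 137 and 129 CPM to 15.6, 19.1 and 26.4 CPM (log2 fold change -2.71 ± 0.17, adjusted p = 0.000134). *Pla2g2e*, a secreted phospholipase of adipose tissue, fell from 13.9, 11.8 and 15.1 CPM to 1.19, 1.19 and 1.8 CPM (log2 fold change -3.28 ± 0.28, adjusted p = 0.00034). The serine protease inhibitors *Serpina3m* (-2.70 ± 0.29) and *Serpina3b* (-2.67 ± 0.39), members of a family of near-identical copies, and *Ntsr2*, a neurotensin receptor (-2.88 ± 0.27), fell as well. Also among the 15 largest falls were *Cacna2d3* (-3.06 ± 0.51), *Odf3l1* (-2.86 ± 0.30), *Bpifb6* (-2.81 ± 0.45) and *Asb12* (-2.44 ± 0.42), all under 10 CPM. Their WL1 libraries were below every Pre library.

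On the rising side, *Peg10*, an imprinted gene derived from a retrotransposon, had 55, 32.3 and 30.9 CPM at Pre and 207, 148 and 142 CPM at WL1 (log2 fold change 2.07 ± 0.24, adjusted p = 0.00128) and 56, 41 and 41.8 CPM at WL2. *Mdk*, the growth factor midkine, had 1.65, 2.98 and 2.22 CPM at Pre and 8.25, 6.38 and 9.56 CPM at WL1 (log2 fold change 1.82 ± 0.29, adjusted p = 0.00644), and *Slc6a6*, the taurine transporter, had 117, 134 and 137 CPM at Pre and 293, 283 and 402 CPM at WL1 (log2 fold change 1.33 ± 0.23, adjusted p = 0.00927) and 177, 90.7 and 113 CPM at WL2. The WL1 levels of *Peg10* and *Slc6a6* were above those of both other phases in every library. *Fblim1*, a filamin-binding adaptor (1.36 ± 0.24), *Plekhn1* (1.81 ± 0.31), *Specc1* (1.33 ± 0.21) and *Jade3* (1.32 ± 0.22) completed the largest rises with *Rps27rt* (1.46 ± 0.24), a copy of a ribosomal protein gene whose reads may be shared with *Rps27*. Long noncoding RNAs made up 25 of the rises and 39 of the falls among 2096 tested. These are 1.19% and 1.86% of them, below the 2.6% and 4.69% of all genes tested. The stable ones of at least 1 CPM with the largest changes were *1700047G03Rik* (188, 157 and 259 CPM at Pre and 34.5, 40.0 and 41.9 CPM at WL1; log2 fold change -2.37 ± 0.21, adjusted p = 0.000347), *Gm13703* (-2.81 ± 0.44) and *Gm38398* (-2.64 ± 0.46), which fell, and *Gm14636* (2.10 ± 0.38), which rose.

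Of 18 fibroblast and progenitor markers, 1 rose (*Cd9*, log2 fold change 1.16 ± 0.29, adjusted p = 0.0388; 4 of 9 fits) and 2 fell, *Thy1* (log2 fold change -0.64 ± 0.14, adjusted p = 0.0244; 4 of 9 fits) and, stably, *Acta2*, given above with the smooth muscle genes. Calls numbered between 1 and 5 in each of the following lists, none of them stable. They were fatty acid uptake (12 tested), thermogenesis (10), basement membrane laminins (13), TGF-β signalling (27) and neutrophils (9). Desmosomes (11), the circadian clock (18), protein folding (22) and iron handling (17) were the others. The clock had 1 rise, folding had 1 fall and iron handling had 1 rise and 4 falls. Over all genes tested, 2.6% rose and 4.69% fell. Of 7 nerve and Schwann cell genes 0 passed by edgeR, 2 had an unadjusted p under 0.05, and 1 passed by DESeq2 and by limma on log2(FPKM + 1). *Tgfb1*, the ligand that drives fibrosis, had 88.9, 156 and 92.9 CPM at Pre and 129, 137 and 158 CPM at WL1, with overlap (log2 fold change 0.33 ± 0.21, adjusted p = 0.37).

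Of the genes that fell at WL1, 561 of 868 also passed against Pre in the same direction at WL2, and of those that rose, 107 of 482. The comparisons share the Pre libraries, so these counts describe the libraries and are no independent repeat. They are given without the share of all genes that passed at WL2. At WL1 itself, 329 of the falls but 47 of the rises were stable. Whether falls lasted longer than rises was not tested.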

How the data were processed

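RNA of epididymal adipose tissue was sequenced in 9 libraries (3 each of Pre, WL1 and WL2), grouped by the sample labels. The authors deposited whole-number read counts per gene without normalization, used for all tests, and FPKM (counts scaled by gene length and library total), used for alternatives. The submitters' notes name HISAT2, HISAT, TopHat2 and CASAVA and the builds GRCm38 and mm10. For the counting program, strand setting and annotation, the sources used here give nothing. Gene positions in the deposited table were identical to those of GENCODE M21 (GRCm38) for 1524 of 52125 shared genes, so none is printed. Promoters came from RefSeq (12521 of 18492 genes with a unique symbol had a window, those of chromosome 18 left out).

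Genes with 0.5 CPM in at least 1 library (18510) were tested with edgeR 4.0.16 in R 4.3.3 (TMM factors, glmQLFit and glmQLFTest, 1 model of 9 libraries, no covariates). The threshold was 0.05 after Benjamini-Hochberg adjustment over all genes tested. CPM are given per library, and fold changes with their SE. The labels do not state whether each library is 1 animal, so p-values measure the spread between these samples. Alternatives were other scaling and filters, DESeq2 1.42.0, limma 3.58.1 on log2(FPKM + 1) and log2(FPKM + 0.1), Pre and WL1 alone, a replicate block and each library left out. Fits were tested on simulated data. No 2 libraries of a phase held equal values. With at least 16434450 counts, 0.5 CPM is few reads, so low genes carry wide counting error.

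Named genes were the 15 protein-coding genes with the largest stable rise and fall (mean of at least 1 CPM, phases not overlapping), the 5 with the largest stable gain and loss of CPM, list members by stability and size, and 3 noncoding RNAs each way. Some genes that the rule names, and 1 B cell marker, are not reported here. *Sqle*, *Acacb*, *Lpl*, *Cd36*, *Cpt1a*, *Dgat1* and other members that did not pass, and *Siglec1*, a stable rise in no list, were chosen after their values were seen. The members and the 60 lists were chosen with earlier results of these data known. Some lists share members, and the 995 entries tested were 934 distinct genes.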

Additional observations from a re-analysis of the deposited data

How the results depend on the processing

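Against 1350 genes changed (482 higher, 868 lower), DESeq2 gave 2344 (944 higher, 1400 lower) and limma on log2(FPKM + 0.1) gave 781 (195 higher). Rises numbered 1003 with scaling by the library sum alone and 829 with no filter on low counts. With the replicate block the numbers were 844 changed and 223 higher, with 621 lower. Leaving out each library in turn gave 507 to 1490 genes changed, 95 to 626 higher and 410 to 864 lower. The other settings gave counts within 1.5 times. Deviations from the group mean of Pre and WL1 libraries with the same number correlated at -0.07, -0.06 and 0.03 across genes. No library of Pre or WL1 correlated best with the one of its own number. These values gave no sign that the numbers pair the samples. No gene that passed the threshold and was named by the rule changed its direction under any alternative. The rule also names members that did not pass, to which this does not extend. The cause of the differences in count was not tested. List medians near 0 changed sign under some settings. So did those of the T and natural killer cell list (-0.71) and the B and plasma cell list (-3.01) without Pre replicate 2. The hepatocyte median went from -0.27 to 0.379 without Pre replicate 3 and was also positive without WL1 replicates 2 or 3. Medians of the lists named for lipid synthesis, the mitochondrial genome, collagen, macrophages and lysosomes did not change sign. Genes near 0.5 CPM rest on few reads, which limits their fold changes. Of 1139 list medians under an alternative, 76 moved by at least the SD between replicates, in 30 of the 60 lists. The list of epididymis, testis and seminal vesicle genes gave no value with the filter on 3 libraries.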

Other observations

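The genes named here lie outside the lists and were picked from the stable changes after their values were seen, so they say nothing of their pathways as groups. *Saa3*, an acute phase protein, had 63.3, 62.3 and 97.7 CPM at Pre and 8.69, 18.2 and 27.7 CPM at WL1 (log2 fold change -2.03 ± 0.34, adjusted p = 0.00792), *Lrg1* had 316, 375 and 389 CPM at Pre and 108, 126 and 121 CPM at WL1 (log2 fold change -1.60 ± 0.21, adjusted p = 0.002), and *Orm1* (-1.19 ± 0.16), the lipopolysaccharide binding protein *Lbp* (-1.15 ± 0.14) and the protease inhibitor *Serpina3n* (-1.03 ± 0.16) were lower too. In each the WL1 libraries lay below the Pre libraries. *Ass1*, which makes argininosuccinate, had 42.3, 27.5 and 22.8 CPM at Pre and 7.17, 6.57 and 6.86 CPM at WL1 (log2 fold change -2.17 ± 0.26, adjusted p = 0.0014), and *Phgdh*, the first enzyme of serine synthesis, had 716, 789.9 and 594 CPM at Pre and 268, 312 and 255 CPM at WL1 (log2 fold change -1.33 ± 0.15, adjusted p = 0.000887). *Cth* (-1.81 ± 0.16), *Gpt* (-1.10 ± 0.15), *Prodh* (-1.35 ± 0.17) and the glutamine carrier *Slc1a5* (-0.93 ± 0.14) were lower as well.

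Pyruvate carboxylase *Pcx* had 1189, 1238 and 1079 CPM at Pre and 641, 643 and 527 CPM at WL1 (log2 fold change -0.95 ± 0.12, adjusted p = 0.00151), and citrate synthase *Cs* (-0.62 ± 0.10), malate dehydrogenase *Mdh1* (-0.60 ± 0.10) and the pyruvate carrier subunit *Mpc2* (-0.91 ± 0.15) were lower. Tubulins *Tuba1a* (1416, 1171 and 1619 CPM at Pre and 347, 431 and 402 CPM at WL1; log2 fold change -1.83 ± 0.15, adjusted p = 0.00028), *Tuba1b* (-0.92 ± 0.13) and *Tubb4b* (-0.67 ± 0.10) fell stably as well, and tubulin genes are near copies of each other, so the split of reads among them is uncertain.

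Among stable rises, *Adm*, the vasodilator adrenomedullin, had 17.6, 17.8 and 18.7 CPM at Pre and 38.4, 28.8 and 27.5 CPM at WL1 (log2 fold change 0.81 ± 0.15, adjusted p = 0.0115), the transcription factor *Klf6* had 166, 171 and 191 CPM at Pre and 288, 267 and 298 CPM at WL1 (log2 fold change 0.70 ± 0.10, adjusted p = 0.00445), and *Ripk3*, a kinase of necroptosis, had 11.1, 11.4 and 10.7 CPM at Pre and 17.8, 18 and 20.2 CPM at WL1 (log2 fold change 0.75 ± 0.12, adjusted p = 0.00557). *Rptoros*, a long noncoding RNA, had 0 reads in the 3 Pre libraries together and 64 at WL1. With 0 reads at Pre, it could reach the filter of 0.5 CPM only in libraries given SD. Its contrast was thus partly set by the filter and rests on few reads.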
